A study of Mus musculus with 2 samples.

Results

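MiR-9 peaks on mouse autosomes lay in part in dense runs, and these runs, called chains here, are the subject. Chains were defined by peak position alone. The peaks of chromosomes 1 to 19 were sorted, neighbours at a gap of 12500 bases or less were joined, and chains of 4 or more peaks were kept. This gave 247 chains with 1401 peaks, which was 8.44% of the 16594 autosomal peaks and 7.82% of the 17922 peaks of the list. The remaining autosomal peaks were 3741 in chains of 2 or 3 and 11452 lone peaks, and both serve as the comparison. Since position chose the members, their spacing and density are given as a description and were not tested. The peaks of 1 chain share a locus and often a gene, so they are not independent of each other.

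The peaks came from chromatin isolation by RNA purification (ChIRP-seq) in MLg cells, an established fibroblast line from mouse lung, for which the labels name no treatment. In this assay, tagged probes complementary to an RNA fish it out of fixed chromatin, and sequencing then reads the DNA held with it. The series held 1 miR-9 capture library and 1 input chromatin library, and the deposited list contained the capture peaks called over the input. There was no replicate, so no comparison below has a replicate check. Intervals are exact (Clopper-Pearson) 95% intervals and cover counting error only. The deposited score was 0 in all 17922 peaks, so enrichment per peak and sequencing depth were unknown here. A library captured with a control probe was not analysed here.

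A microRNA pairs with other RNAs mainly through its seed, a short stretch near its 5′ end, and miR-9 is known for its roles in neurons and in fibrosis. Most microRNAs act in the cytoplasm, and some, miR-9 among them, are also found in the nucleus. Long runs of regulatory elements, known as super-enhancers, are commonly built by stitching neighbouring peaks over a gap as used here. The chains here used neither signal nor histone marks. The mature sequence is shown first, from RefSeq (GRCm38.p6), with the seed (bases 2 to 8) in capitals, because stretches of it were searched under every peak. All words were searched on both strands, and overlapping words were counted separately.
mmu-miR-9-5p: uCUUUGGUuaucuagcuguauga

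A 10-base word of miR-9 lay in 92 of the 1401 chain peaks (6.57%, 5.33 to 7.99%), spread over 83 of the 247 chains. The shares were 6.23% (5.48 to 7.05%) in chains of 2 or 3 and 5.88% (5.45 to 6.32%) in lone peaks, so the 3 intervals overlapped. Chain peaks were wider, and per kb of peak sequence they held fewer words, 0.156, against 0.226 in chains of 2 or 3 and 0.281 in lone peaks. Among peaks over 250 bases the share was 8.85% (7.16 to 10.8%) in chains, 9.49% in chains of 2 or 3 and 9.98% (9.21 to 10.8%) in lone peaks. Words of miR-9 were thus no more frequent under chains than elsewhere in the list. The longest stretch shared with miR-9 measured 13 bases, in 3 chain peaks, and a further 7 chain peaks held 12 bases.

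These sites are the miR-9 stretches of 12 or 13 bases under the chains that lie outside mRNA exons. The stretches of 13 bases at Sco2 and of 12 bases at Ppp2cb and 9230105E05Rik lay in mRNA exons of Ncaph2, Ubxn8 and Hmga2, and their sequence is not printed. Each site shown is written in the direction of miR-9 with the matching bases in capitals and 24 bases of flank on either side, read from GRCm38.p6. A match is a description of sequence and not a binding site. The Sptbn1 site lay at chr11:30263494-30263554 on the minus strand, in a peak of 3613 bases. HOMER called this peak intergenic, while the RefSeq gene Sptbn1, which encodes a beta-spectrin, held the whole chain. The 4930405A10Rik site lay at chr14:22771691-22771751 on the minus strand, in an intron. HOMER assigned its peak to 4930405A10Rik at -229029 bases, and the whole chain lay in the RefSeq gene Lrmda. The Acta2 site lay at chr19:34254933-34254992 on the minus strand, in an intron of the gene of smooth muscle actin, the marker of myofibroblasts. The Yap1 site lay at chr9:8002967-8003026 on the minus strand, in an intron of the gene of the Hippo pathway coactivator. The Celf1 site lay at chr2:90951821-90951880 on the plus strand, in an intron of the gene of an RNA-binding protein. The Mir12198 site lay at chr5:32028177-32028236 and the Zfp958 site at chr8:4614017-4614076, both on the plus strand, in peaks annotated as intron and assigned to a microRNA and a zinc finger gene.
Sptbn1: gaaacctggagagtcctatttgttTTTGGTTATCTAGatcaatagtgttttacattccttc
4930405A10Rik: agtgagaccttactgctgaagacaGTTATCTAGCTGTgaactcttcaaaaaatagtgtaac
Acta2: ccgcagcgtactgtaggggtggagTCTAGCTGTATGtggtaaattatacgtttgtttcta
Yap1: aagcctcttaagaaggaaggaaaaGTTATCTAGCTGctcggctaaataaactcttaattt
Celf1: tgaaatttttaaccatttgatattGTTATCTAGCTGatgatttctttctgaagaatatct
Mir12198: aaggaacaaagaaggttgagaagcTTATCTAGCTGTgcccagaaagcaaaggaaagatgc
Zfp958: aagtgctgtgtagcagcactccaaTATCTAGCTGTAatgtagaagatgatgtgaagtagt

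The Sptbn1 stretch began at base 3 of miR-9 and so took in most of the seed. The Sco2 stretch began at base 6, the 4930405A10Rik, Yap1 and Celf1 stretches at base 7, the Mir12198 stretch at base 8, the Zfp958 stretch at base 9 and the Acta2 stretch at base 11, so these held at most the end of the seed. Words were counted at each start position, so 1 stretch of 12 bases gave 3 overlapping words and 1 of 13 bases gave 4. Most 10-base words per chain were found in the chain of Mrps18a and Rsph9 on chromosome 17. All 6 words of that chain lay in 1 of its 8 peaks. Mrps18a encodes a mitochondrial ribosomal protein and Rsph9 a radial spoke protein of cilia. The 4930405A10Rik chain also had 6 words, in 2 of its 4 peaks. The chain of Ubxn8 and Ppp2cb on chromosome 8 had 5, and the Sptbn1, 9230105E05Rik, Celf1 and Sco2 chains had 4 each. The Tmtc1 chain had 3, in 2 of its 16 peaks.

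Chains were mostly short. There were 119 chains of 4 peaks, 56 of 5, 24 of 6, 12 of 7, 10 of 8 and 7 of 9, and 19 chains had 10 or more and held 274 peaks. The longest had 24. The span from the first to the last base had a median of 18.15 kb and ranged from 3.671 to 115.8 kb. All chains together spanned 5.33 Mb, or 0.217% of the autosomes, of which 992 kb lay under peaks. Gaps inside chains had a median of 2560 bases, and 336 of 1154 gaps were under 1 kb. The largest gap inside a chain was 12486 bases, and the smallest gap that ended a chain was 12522 bases. Just below the limit of 4 peaks stood 311 chains of 3.

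**Figure D1:**
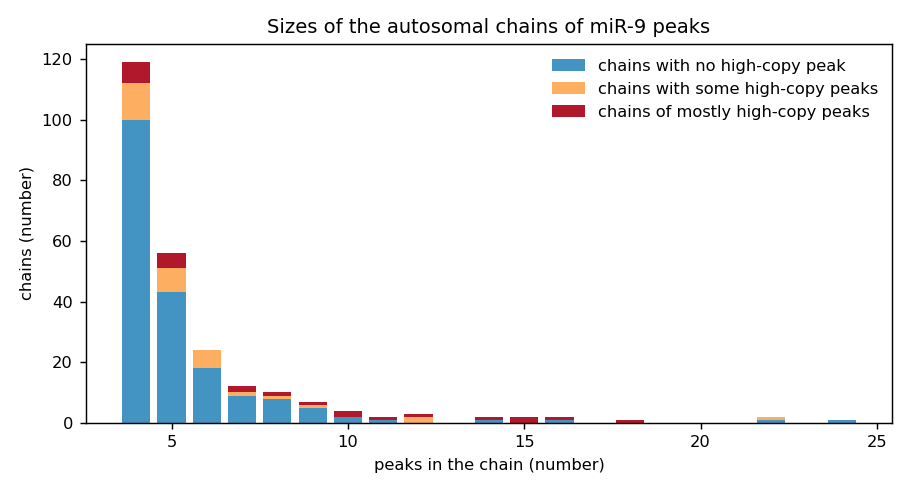
Number of chains (vertical axis) by the number of peaks in the chain (horizontal axis), coloured by how many of the chain's peaks were high copy. Chains of 4 make up 119 of the 247, and the single chain of 24 peaks has no high-copy peak.

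Chain peaks were wide. Their median width was 566 bases, against 482 bases in chains of 2 or 3 and 193 bases in lone peaks. Widths over 250 bases were found in 1006 chain peaks (71.8%, 69.4 to 74.2%), in 58.3% (56.7 to 59.9%) of peaks in chains of 2 or 3 and in 48.6% (47.6 to 49.5%) of lone peaks. The share of wide peaks was higher in chains than in lone peaks on all 19 autosomes. The list merged calls made at 2 shift sizes, and the part of merging in these widths was not tested.

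To separate loci present once from repeated sequence, each peak was cut into 32-base words, and peaks in which over 50% of the words had at least 5 positions in the assembly were termed high copy. Chains then fell into unlike kinds. In 190 chains, with 1002 peaks, no peak was high copy. In 25 chains, with 205 peaks, most peaks were, and 32 chains with 194 peaks held some. In chains with no high-copy peak 58.3% of the peaks lay in introns, 24.7% were intergenic and 28.1% were annotated as a repeat. In the 25 high-copy chains 23.4% of the peaks lay in introns, 68.8% were intergenic and 46.3% were annotated as a repeat. Per peak, the high-copy share was 16.6% (14.7 to 18.7%) in chains, 15.9% (14.8 to 17.1%) in chains of 2 or 3 and 21.3% (20.5 to 22.0%) in lone peaks. Without chromosomes 6 and 8 it was 5.71% in chains and 22.0% in lone peaks. The order was the opposite where chains were rebuilt from peaks without a repeat, with 13.2% in chains and 3.07% in lone peaks, and where they were rebuilt from peaks over 250 bases, with 18.6% in chains and 18.2% in lone peaks. Reads from repeated sequence can be placed at another copy by the aligner, so a peak in the high-copy chains need not stand for signal at that copy.

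**Figure D2:**
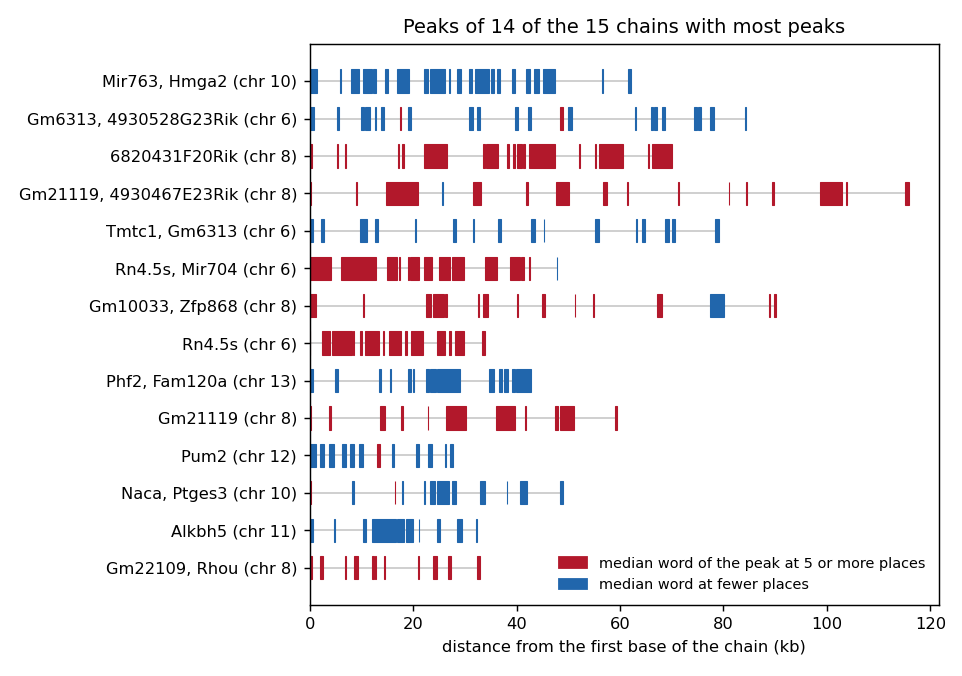
Peaks of 14 of the 15 chains with most peaks, drawn to scale by distance from the first base of the chain in kb, with a thin outline that keeps narrow peaks visible, 1 chain a row with most peaks on top. Red peaks have a median word at 5 or more places of the assembly and blue peaks at fewer, and most rows are of 1 colour.

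Mostly outside high-copy sequence, a dense group of 7 chains and 68 peaks lay on chromosome 6 at chr6:148247808-148704731, with 4 high-copy peaks. It included the Gm6313 chain of 22 peaks and the Tmtc1 chain of 16. The 16 peaks of the Tmtc1 chain were all intergenic, and 15 of them were assigned to Tmtc1, which encodes an endoplasmic reticulum O-mannosyltransferase, from -12780 to -82874 bases of its transcription start site (TSS). The 1-Mb window from 148 to 149 Mb of chromosome 6 held 82 peaks, the highest count among 2473 autosomal windows with a median of 5. Copy number of this locus in MLg cells was not measured here.

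The Hmga2 gene on chromosome 10, which encodes an architectural chromatin protein of embryonic and mesenchymal cells, carried a chain of 22 peaks at chr10:120421103-120483235 and a further chain of 7 at chr10:120357307-120393582. The larger one had 22769 bases under peaks, the most among the chains without high-copy peaks, and its widest peak measured 2969 bases. In it, 19 peaks lay in introns, and 16 were assigned to the intronic microRNA gene Mir763 and 6 to Hmga2. A narrow peak of 175 bases sat at -26 bases from the Mir763 start. The nearest peak to the Hmga2 TSS was 1180 bases away. No peak of either chain was high copy. The 1-Mb window around both, from 120 to 121 Mb, held 51 peaks.

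Several chains lay largely in 1 gene. The 12 peaks of the Pum2 chain (chr12:8676070-8703861) were all in introns, from 2042 to 28841 bases downstream of the TSS. Pum2 encodes a Pumilio RNA-binding protein. The Smurf2 chain (chr11:106870856-106912903) had 10 peaks, all in introns and from 7881 to 49598 bases downstream of the TSS. Smurf2 encodes a ubiquitin ligase that limits TGFB signalling. The Alkbh5 chain (chr11:60528261-60560524), at the gene of an RNA m6A demethylase, had 11 peaks, none of them annotated as a repeat. They ran from -9125 to 22769 bases of the TSS, with 5 in introns and the widest at 4614 bases. The Phf2 chain (chr13:48878440-48921247) was an exception to its own name, since 13 of its 14 peaks were assigned to Phf2, a histone demethylase gene, while 98.2% of the span lay in Fam120a, of which it covered 47.3%. The chain of 12 peaks at Naca, Ptges3 and Prim1 (chr10:128017673-128066718) crossed several genes. It had 7 peaks at Naca, which encodes a ribosome-associated chaperone, and 4 at Ptges3, which encodes an Hsp90 cochaperone.

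Taking all 247 chains, 90 lay wholly inside 1 protein-coding gene, 153 had at least 50% of their span in 1, 51 touched 2 or more and 37 touched none. HOMER gave 159 chains a single gene name, and 332 names occurred in all. Chain peaks inside coding genes sat somewhat towards the start of the gene. With each gene body cut into 5 equal parts, the part next to the start held 245 of 877 such peaks (27.9%, 24.99 to 31.0%), against 25.3% (23.4 to 27.2%) in chains of 2 or 3 and 23.1% (22.0 to 24.3%) in lone peaks. The interval of the chain peaks lay just above that of the lone peaks and overlapped that of the chains of 2 or 3. These intervals count neighbouring peaks of 1 gene as separate, so they do not measure the spread between chains. The genes holding chain peaks had a median length of 56.0 kb, against 70.1 kb for chains of 2 or 3 and 103 kb for lone peaks.

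Chain peaks lay inside gene features more often than lone peaks. Introns held 730 chain peaks (52.1%, 49.4 to 54.8%), 46.6% of the peaks in chains of 2 or 3 and 41.1% (40.2 to 42.0%) of lone peaks. Transcription termination sites (TTS) held 69 chain peaks (4.92%, 3.85 to 6.19%), against 3.15% and 1.44% (1.23 to 1.68%). The 3′ untranslated regions held 38 (2.71%, 1.93 to 3.70%), against 2.00% and 0.90% (0.73 to 1.09%). Exons held 29 (2.07%), against 1.84% and 1.06%. Intergenic sequence held 462 chain peaks (33.0%, 30.5 to 35.5%), against 41.2% (39.6 to 42.8%) and 51.9% (50.9 to 52.8%). The intergenic share was lower in chains than in lone peaks on 17 of 19 autosomes, and without chromosomes 6 and 8 it was 24.2% in chains and 51.8% in lone peaks.

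At gene starts the difference depended on the measure. A peak within 2 kb of a TSS occurred in 96 chains. The share of such peaks was 12.8% (11.1 to 14.6%) in chains, 10.99% (10.0 to 12.03%) in chains of 2 or 3 and 7.396% (6.92 to 7.89%) in lone peaks, and it was higher in chains than in lone peaks on 16 of 19 autosomes. Peaks annotated as promoter made up 4.21% (3.22 to 5.40%) of chain peaks, 4.28% (3.65 to 4.97%) of peaks in chains of 2 or 3 and 3.16% (2.85 to 3.50%) of lone peaks. Among wide peaks outside high-copy sequence the promoter share was 4.77% (3.44 to 6.41%) in chains and 5.08% (4.46 to 5.76%) in lone peaks. A promoter peak was present in 46 of the 247 chains. In the same peaks the share within 2 kb of a TSS was 13.4% (11.2 to 15.8%) in chains, 14.5% in chains of 2 or 3 and 10.5% (9.59 to 11.4%) in lone peaks. A difference in promoters was thus not detectable between chain and lone peaks of like width and copies.

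**Figure D3:**
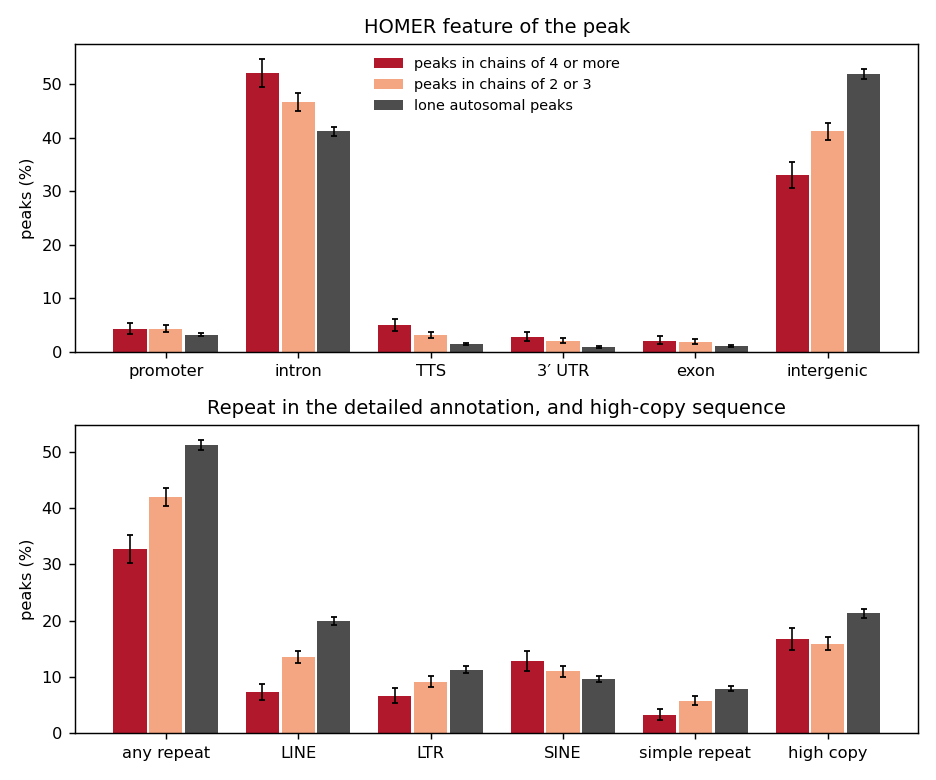
Share of peaks (%) by HOMER feature (upper panel) and by repeat class or high-copy sequence (lower panel) in chains of 4 or more, chains of 2 or 3 and lone autosomal peaks. Lines are exact 95% intervals for counting error only. Intergenic, LINE and any-repeat shares are lowest in the chains, and intron, TTS and SINE shares highest.

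Chain peaks were annotated as a repeat less often. Each peak has a single such label, so repeats elsewhere in the peak were not counted. The detailed annotation named a repeat in 459 chain peaks (32.8%, 30.3 to 35.3%), in 41.9% (40.4 to 43.5%) of peaks in chains of 2 or 3 and in 51.2% (50.3 to 52.1%) of lone peaks. The share was lower in chains than in lone peaks on all 19 autosomes. Among wide peaks outside high-copy sequence it was 29.5% (26.5 to 32.7%) in chains, 33.8% (31.7 to 36.0%) in chains of 2 or 3 and 39.8% (38.4 to 41.2%) in lone peaks. LINE elements, the long retrotransposons, accounted for 7.21% (5.91 to 8.69%) of chain peaks, 13.5% of peaks in chains of 2 or 3 and 19.9% (19.2 to 20.6%) of lone peaks. L1Md_T, a young and active mouse L1 subfamily, was the label of 0 of 1401 chain peaks, which allows a share of up to 0.26%. It was the label of 89 peaks in chains of 2 or 3 (2.38%) and of 492 lone peaks (4.30%). All L1Md names together made up 0.714% of chain peaks and 10.5% of lone peaks. L1 names did not all run this way, since L1_Mur2 made up 0.642% of chain peaks and 0.166% of lone peaks. LTR elements made up 6.50% of chain peaks, 9.14% of peaks in chains of 2 or 3 and 11.3% of lone peaks. Simple repeats made up 3.21%, 5.69% and 7.88% in the same order.

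SINE elements, the short retrotransposons common in gene-rich sequence, ran the other way. They were the label of 178 chain peaks (12.7%, 11.01 to 14.6%), 10.9% of peaks in chains of 2 or 3 and 9.61% (9.08 to 10.2%) of lone peaks. The share was higher in chains than in lone peaks on 13 of 19 autosomes. The repeat name with most chain peaks was B1_Mus1, with 28 peaks in 26 chains (2.00% of chain peaks, 0.926% of lone peaks). Next came the SINE B3 with 17 peaks in 17 chains, the satellite IMPB_01 with 15 in 4, and (CA)n, B2_Mm2 and B4A with 13 each. B1_Mus2 and the LTR element MTD followed with 11 each, ID_B1 with 10 and L1_Mur2 with 9. A simple (CA)n repeat was annotated under 0.928% of chain peaks and 2.27% of lone peaks. Runs of at least 8 CA or TG units in the sequence itself occurred in 12.4% (10.7 to 14.3%) of chain peaks, 12.2% of peaks in chains of 2 or 3 and 13.8% (13.2 to 14.5%) of lone peaks. With the exception of IMPB_01, the 10 names were thus spread over chains almost singly. In 53 chains no peak was annotated as a repeat, and 6 chains held repeat peaks alone.

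In the high-copy chains the peaks of 1 chain were often copies of each other. A peak was counted as a local copy when at least 10% of its words also lay in another peak of the same chain, which held for 76 chain peaks (5.42%, 4.30 to 6.74%) and for 50 of 3741 peaks in chains of 2 or 3 (1.34%). The 76 peaks were in 13 chains, and 70 of them in chains of mostly high-copy peaks. Across chains, 26 fell into 8 families, joined link by link where at least 10% of the words of 1 chain lay in another. Members of a family need not all share words directly.

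The largest family was on chromosome 8 and joined 12 chains with 112 peaks, of which 105 were high copy. At chr8:19684464-20595186 alone stood 9 chains with 85 peaks. HOMER assigned them to Gm21119, 6820431F20Rik, 2610005L07Rik, 4930467E23Rik and Gm15319, of which 6820431F20Rik and 2610005L07Rik are annotated as pseudogenes of cadherin 11. The 6820431F20Rik chain of 18 peaks (chr8:20087512-20157651) was high copy throughout, with a median word at 6 places, and all of its peaks were intergenic. The remaining chains of the family lay at chr8:69409015-69604030, with Gm10033 and Zfp868, a zinc finger gene. Only 3 of the 112 peaks were local copies of a peak in their own chain, so that here copies lay mostly outside the peaks of their own chain.

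Tandem sequence at RNA genes formed chains of another kind. On chromosome 6, 2 chains with 29 peaks lay at Rn4.5s, the gene of the rodent 4.5S RNA, a small RNA made by RNA polymerase III. They had 15 peaks at chr6:47737034-47784926 and 14 at chr6:47651631-47685575, of which 13 and 14 were local copies. The placement is HOMER's, which assigned 13 of the 15 and all of the 14 peaks to Rn4.5s. RefSeq put 1 rRNA gene and 6 protein-coding genes in the chain of 14. It put no rRNA gene in the chain of 15. The chain of 15 had the largest summed width of all, 25842 bases, and the chain of 14 had 10 peaks within 2 kb of a TSS, the highest number. On chromosome 8, 2 chains with 21 peaks lay in the 5S ribosomal RNA array, at chr8:123590616-123623507 and chr8:123537145-123573608. The RefSeq annotation placed 18 and 21 rRNA genes in them. The median word of the peaks in each lay at 49 places. A stretch shared by most peaks of a chain is shown for the Rn4.5s chain of 14 and both 5S chains, plus strand of GRCm38.p6. It is an example of what their peaks share. In the Rn4.5s chain of 15 the most shared stretch was a run of short repeated units. It lay in 7 of 15 peaks, and its median word had 18229 places.
Rn4.5s, chr6:47654846-47654965, in 8 of 14 peaks: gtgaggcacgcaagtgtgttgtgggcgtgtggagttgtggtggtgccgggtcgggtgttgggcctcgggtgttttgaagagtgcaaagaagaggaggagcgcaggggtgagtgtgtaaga
5S array, chr8:123540253-123540335, in 7 of 10 peaks: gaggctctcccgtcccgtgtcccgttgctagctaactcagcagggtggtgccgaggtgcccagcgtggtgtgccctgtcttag
5S array, chr8:123590698-123590759, in 7 of 11 peaks: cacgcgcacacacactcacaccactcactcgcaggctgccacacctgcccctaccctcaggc

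The satellite IMPB_01 and a set of pseudogenes gave smaller examples, named here after their values were seen. Beside Atg7, an autophagy gene, 2 intergenic chains of 9 and 5 peaks (chr6:114592281-114630881 and chr6:114559362-114574108) consisted of high-copy peaks alone. All 14 were annotated as repeats and all shared words within their chain. On chromosome 2, a chain of 4 peaks assigned to Zswim2 (chr2:83966385-83990420) lay over 4 annotated pseudogenes, and all 4 peaks held the same stretch. The start of each shared stretch is shown because it is the unit that recurs.
Atg7, IMPB_01, chr6:114560983-114561094, in 4 of 5 peaks: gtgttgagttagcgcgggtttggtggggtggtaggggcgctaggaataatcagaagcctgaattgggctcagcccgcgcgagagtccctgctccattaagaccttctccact
Zswim2, chr2:83966432-83966551, in 4 of 4 peaks: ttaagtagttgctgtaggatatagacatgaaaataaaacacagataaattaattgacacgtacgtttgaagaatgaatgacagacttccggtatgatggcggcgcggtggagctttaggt

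G-quadruplexes are folded DNA structures built from runs of guanine, and were among the chromatin features the study examined. The G4 motif searched on both strands was 4 stretches of 3 or more G, separated by 1 to 7 bases of any kind. It occurred in 160 chain peaks (11.4%, 9.80 to 13.2%), in 5.88% (5.15 to 6.68%) of peaks in chains of 2 or 3 and in 4.90% (4.51 to 5.31%) of lone peaks, and was higher in chains than in lone peaks on 17 of 19 autosomes. Width and copies moved with this share. Among wide peaks it was 15.1% (12.95 to 17.5%), 9.03% and 8.60% (7.87 to 9.36%) in the same order. Among wide peaks outside high-copy sequence it was 12.3% (10.2 to 14.7%) in chains, 9.74% (8.44 to 11.2%) in chains of 2 or 3 and 9.65% (8.80 to 10.6%) in lone peaks, where the intervals overlapped. Within 2 kb of a TSS it was 24.6% (18.5 to 31.6%) in chains, 11.7% in chains of 2 or 3 and 12.5% (10.4 to 14.9%) in lone peaks. Peaks of tandem arrays were kept in this last comparison. A chain of 14 peaks at the 4.5S RNA gene Rn4.5s had 10 peaks within 2 kb of a TSS, and a chain of 10 peaks in the 5S array had 8. In each of these chains 8 peaks had a motif. How much of the difference goes back to width and to tandem copies was not tested further.

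**Figure D4:**
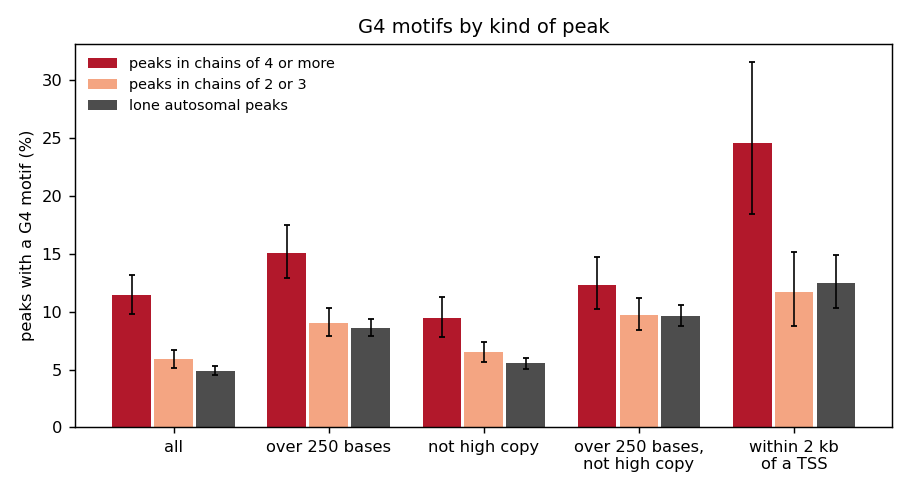
Share of peaks with a G4 motif (%) in chains of 4 or more, chains of 2 or 3 and lone autosomal peaks, for all peaks and for 4 narrower kinds. Lines are exact 95% intervals for counting error only. The chain bar is highest in each kind, and its interval overlaps that of the lone peaks among peaks over 250 bases that are not high copy. Peaks within 2 kb of a TSS include high-copy ones.

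The chains with most G4 peaks were the tandem ones. The Rn4.5s chains had motifs in 10 of 15 and 8 of 14 peaks, and the 5S chains in 8 of 10 and 7 of 11. Outside high-copy sequence the highest count was 4, of 5 peaks in the chain of Midn and Cirbp on chromosome 10. The Hmga2, Pum2, Naca, Sptbn1 and Hoxc6 chains were among those with 3. The Tmtc1 chain, with 16 peaks, had none. The first motif of 4 of these chains is shown in the direction of its G runs, which are in capitals, to set tandem arrays beside chains at single genes.
Rn4.5s, chr6:47654751-47654781, plus strand: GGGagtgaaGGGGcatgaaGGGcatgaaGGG
5S array, chr8:123540381-123540407, plus strand: GGGtGGGctccttGGGGGGttgtGGGG
Midn, chr10:80148149-80148171, plus strand: GGGGtGGGGtGGGGGGGttaGGG
Pum2, chr12:8684642-8684663, minus strand: GGGtGGGGctGGGaggagaGGG

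Lists of genes that bear on fibroblasts and on TGFB were then searched for chains. A gene was counted when a chain lay over it or within 5 kb of it. Over all 20558 autosomal protein-coding genes this held for 339, or 1.65%, with the chain over the gene body for 281 (1.37%), and 272 (1.32%) had a chain peak assigned to them by HOMER. Of 328 listed genes, 23 had a chain. By HOMER's assignment Mir29b-1 and Fcgr3 would be added, and Hoxc4 and H2bc12 would not be counted. No list was tested, and the lists were chosen with earlier results of these data known.

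Smooth muscle contractile genes, which mark myofibroblasts, had chains at 3 of 22, namely Acta2, Cald1 and Myh9. The Acta2 chain (chr19:34245462-34255567) had 4 peaks in introns. The widest, of 4310 bases, held the 12-base miR-9 stretch shown above, which counted as 3 overlapping words. Myh9, the gene of a non-muscle myosin heavy chain, had 8 peaks, 7 of them in introns. Cald1, the gene of the actin-binding caldesmon, had chains of 6, 4 and 5 peaks over and beside it, and the last 2 were mostly assigned to the neighbour Agbl3. Acta2 was also the only one of 25 TGFB-induced genes with a chain, and Smurf2 the only one of 29 genes of TGFB ligands, receptors and feedback. Of 27 lung fibroblast regulators 1 had a chain, the coactivator gene Yap1, with 4 peaks in introns. None of 18 collagen genes had one. Of all autosomal protein-coding genes 1.65% had a chain. Lists of this size hold too few genes to show a lack. They were chosen with earlier results known, so the higher counts measure no excess.

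AP-1 and immediate early genes had chains at 3 of 27, beside 1.65% of all autosomal protein-coding genes. These were Btg2, an antiproliferative gene, Fosl1, an AP-1 subunit gene, and Ier5, an immediate early gene, in chains of 4, 5 and 4 peaks. In the Btg2 chain 2 peaks were assigned to Btg2 and 2 to Fmod, and 9.26% of the span lay in Btg2. The Fosl1 chain was shared with Ccdc85b, Fibp and Ctsw, and its nearest peak lay 5173 bases from the Fosl1 TSS. The oncofetal gene Hmga2 had the chains of 22 and 7 peaks given above. Hox genes had a chain at 3 of 39, a single chain of 4 peaks at Hoxc6, Hoxc5 and Hoxc4 (chr15:103000870-103014829) with 3 peaks within 2 kb of a TSS. Its widest peak, of 3408 bases, carried a miR-9 stretch of 11 bases, counted as 2 overlapping words.

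The list of nuclear and structural noncoding RNA genes, which also held microRNA genes, had chains at 4 of 22. These were Malat1, Mir21a, Mir763 and Rn4.5s. Over all autosomal noncoding RNA genes 187 of 16248 (1.15%) had a chain. Since the list was chosen with earlier results of these data known, these shares do not measure an excess. The Malat1 chain (chr19:5786397-5809444) had 4 peaks. Of these, 1 of 4269 bases was assigned to Mascrna, the small RNA cut from the Malat1 transcript, and 1 of 2805 bases to Malat1 itself. The Mir21a chain (chr11:86578311-86587160) had 5 peaks, all over 250 bases, and the widest, of 3537 bases, was centred at -11 bases from the Mir21a start. Mir21a encodes a microRNA associated with fibrosis. Replication-dependent histone genes had chains at 5 of 40, in 2 chains of chromosome 13, beside 1.65% of all autosomal protein-coding genes. The same chains lay over H2ac11, H2ac22, H2ac23, H2bc22, H2bc23 and H3c11, histone genes that the list did not hold. The chain of 7 peaks at chr13:22022333-22044731 had 6 peaks within 2 kb of a TSS, and 2 of its peaks were local copies of each other, each of 1193 bases over a pair of histone genes. Histone genes of a kind are near-identical, so reads between them may be exchanged.

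Lists for other cell types were searched as well. Lung epithelium had chains at 0 of 20, neurons at 0 of 18 and leukocytes at 1 of 20. Over all autosomal protein-coding genes the share was 1.65%, so lists of this size hold too few genes to show a lack. The leukocyte gene was Cd68, a macrophage gene, in a chain of 5 peaks (chr11:69665529-69682592). That chain also held Eif4a1, the gene of a translation initiation helicase, and Senp3, the gene of a SUMO protease. The chain had 4 peaks within 2 kb of a TSS. The Shc1 chain (chr3:89411554-89438739), at the gene of a signalling adaptor, had 5 of 5 such peaks, at Flad1, Shc1, Pygo2 and Pbxip1.

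Chains were uneven among autosomes. Chromosome 6 had 35 chains with 260 peaks, or 15.2% of its peaks, and chromosome 8 had 19 chains with 160 peaks, or 17.8%. Of the 19 chains on chromosome 8, 14 were mostly high copy, against 4 of 35 on chromosome 6. Chromosomes 11, 17 and 19 followed with 26, 23 and 20 chains, none of them mostly high copy, and chromosome 19 had the most per Mb, 0.326. Chromosomes 12, 14 and 18 had 3, 2 and 3. Outside the chains, peaks within 100 kb of a chain numbered 15.1 per Mb, against 6.18 per Mb of all autosomal sequence outside chains, although the rule itself leaves a bare margin beside each chain. Windows of 1 Mb with chain peaks held a median of 11 other peaks, against 5 in windows without chain peaks. The chains therefore stood in stretches that were also denser in other peaks, which here include those in chains of 2 or 3.

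**Figure D5:**
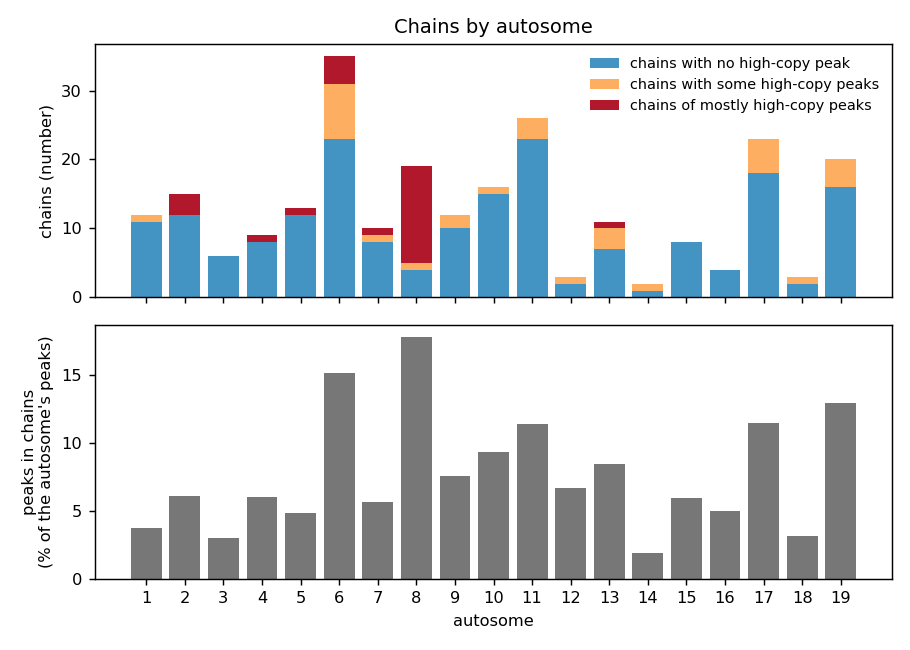
Number of chains by autosome, coloured by how many of the chain's peaks were high copy (upper panel), and the share of each autosome's peaks that lie in chains in % (lower panel). Chromosome 6 has 35 chains, and most of the 19 chains on chromosome 8 consist mostly of high-copy peaks.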

How the data were processed

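The ChIRP-seq series comprised 1 miR-9 capture library and 1 input library of MLg cells, with no replicate. The deposited file was a single peak list. The labels give the probe as one for mature miR-9, while the study's methods name another microRNA in the same protocol. Per the methods, the authors trimmed single-end reads with Trimmomatic (0.36 in the submitters' processing notes), aligned them to mm10 with Bowtie2, removed duplicates with Picard, called peaks with MACS against the input at an uncorrected p-value cutoff with 2 shift sizes, merged the calls with bedtools and annotated them with HOMER. The score that the authors deposited was 0 for all 17922 peaks. Positions and distances to a TSS were used as deposited, counted from 1. Library depth is unknown here, as the list gives no counts.

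Annotations of 8093 peaks had been split over several fields and were rejoined. Autosomal peaks were chained at gaps up to 12500 bases, and chains of at least 4 peaks were kept. Sequence, gene positions and copies of 32-base words came from GRCm38.p6, the assembly behind mm10, and its RefSeq annotation. Old HOMER symbols were matched through RefSeq synonyms. Scripts ran in Python 3.11.15 with pandas 2.3.3 and scipy 1.17.1 and were tested on simulated data, where 7 of 7 checks passed. Named chains were the 15 with most peaks, the 5 highest for summed width, miR-9 words and peaks near a TSS, and all with a listed gene. Named repeats were the 10 most frequent, where L1_Mur2 tied with PB1D10, and L1Md_T was named in addition. Members, lists and rules were chosen with earlier results of these data known. No test was run, since groups of peaks within 1 list are not replicates. Alternatives changed the gap, the fewest peaks of a chain, the peaks admitted and the definitions of the measures. The chain with most peaks is not reported here.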

Additional observations from a re-analysis of the deposited data

How the results depend on the processing

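The comparison with lone peaks kept its direction under all alternatives run for the promoter, TSS, intergenic, repeat, wide and G4 shares. It turned round for the high-copy share with only peaks over 250 bases and with only peaks without a repeat, and for the miR-9 word share in 4 of 10 alternatives. Outside these alternatives, the promoter share was lower in chains among wide peaks without a repeat, 6.89% against 8.30% in lone peaks. Among wide peaks outside high-copy sequence it was 4.77% against 5.08%. Among all wide peaks, narrow peaks and peaks that were not high copy it was higher in chains. With 0.5 times the gap there were 148 chains, with a G4 share of 14.1%, an intergenic share of 28.7%, a local copy share of 6.96%, a wide share of 77.1% and 15 listed genes. With double the gap there were 396 chains, and these values were 9.32% (G4), 35.9% (repeat), 65.9% (wide) and 58 genes. Chains of 3 or more numbered 558, with 9.38% (G4), 4.11% (local copy), 68.6% (wide) and 46 genes. Chains of 5 or more numbered 128, with 13.4% (G4), 20.5% (high copy), 35.9% (intergenic), 7.46% (local copy), 5.3% (miR-9 word) and 14 genes. Peaks over 250 bases alone gave 120 chains, with 17.4% (G4), 28.6% (intergenic) and 7.58% (local copy). Peaks that were not high copy gave 9.56% (G4), 25.6% (intergenic), 0.447% (local copy), 28.6% (repeat) and 74.2% (wide). Peaks without a repeat gave 112 chains, with 14.8% (G4), 17.1% (TSS), 13.2% (high copy), 27.3% (intergenic), 7.3% (local copy), 7.13% (promoter) and 75.6% (wide). Without the 25 mostly high-copy chains, an alternative chosen after seeing the data, the values were 9.36% (G4), 3.26% (high copy), 26.8% (intergenic) and 0.502% (local copy). By construction, looser definitions gave 25.3% within 5 kb of a TSS, 21.5% high copy at 2 places, 17.1% G4 with loops to 12 bases and 30.2% with miR-9 words of 8 bases, and 12-base words gave 0.714%. Double the gap and chains of 3 or more kept all 1401 chain peaks and added others, and the stricter rules and filters kept 42% to 85.4% of them and added none. The cause of the moves was otherwise not tested. No paired analysis was possible because 1 capture and 1 input library share no replicates. Without counts, no limit from depth could be given.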
